A study of Mus musculus with 24 samples.

Results

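Caspases are the cysteine proteases that dismantle a cell in apoptosis or set off inflammatory death, and 7 mouse caspase genes were followed here in irradiated thymocytes: Casp1, Casp4, Casp12, Casp8, Casp2, Casp9 and Casp6. They were taken as the non-control probes whose accession belongs to one of these genes, which gave 8 probes out of 28026 probes with a gene name, and 7 genes out of 21154. Casp4 had 2 probes and every other gene had 1. The RNA came from primary thymocytes of young male and female C57BL/6J mice, a suspension made from the dispersed thymus without a sort. Control mice were not irradiated, low dose mice received 0.075 Gy of X-rays, high dose mice received 1.75 Gy of γ-rays, and radio-adapted mice (RAR) received 0.075 Gy of X-rays 6 h before 1.75 Gy of γ-rays. Each of the 8 groups of sex and treatment had 3 arrays, each from a separate sample, so that 6 arrays stood for each treatment. On all 24 arrays the thymocyte RNA carried Cy5 and a Universal Mouse reference RNA carried Cy3, with no dye swap. The value of a gene is therefore its log2 ratio, log2(Cy5/Cy3), which is 0 where thymocytes and reference are equally bright, and which ranks treatments within a gene but not one gene against another. The design asks what the adaptive regimen of radiation did beyond no irradiation, the high dose alone and the low dose alone.

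Initiator caspases are activated on scaffolds. Casp9, which joins the apoptosome after cytochrome c leaves the mitochondria, Casp8, which docks at death receptors through FADD, and Casp2, which binds the PIDDosome, start apoptosis. Executioner caspases such as Casp6 then cut the structural proteins of the cell. Casp1, the inflammasome protease that matures interleukin-1β and interleukin-18, and Casp4, the intracellular sensor of bacterial lipopolysaccharide that cleaves gasdermin D, belong to the inflammatory branch together with Casp12, which has been linked to stress of the endoplasmic reticulum. In the thymus most cells die by apoptosis during selection, and thymocytes are known for dying readily after irradiation.

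Scanner signals differed between arrays. Cy5 was well above background for 48.3% to 62.2% of the probes on 22 arrays, while 2 arrays of radio-adapted females stood apart, with 71.3% on replicate 2 and 33.6% on replicate 3. Their effect is given beside the results below. By their barcodes the arrays were spread over 3 slides of 8 arrays, and all 3 female controls lay on slide 3 and all 3 high dose females on slide 1. Male control replicate 1, on slide 2, was the only control off slide 3, and the RAR arrays lay on slides 1 and 2. RAR and control thus shared slide 2 alone, and their difference is partly confounded with slide. The sex-linked genes matched the labelled sex on 24 of 24 arrays. Every member except Casp12 was scored as well above background in Cy5 on each of the 24 arrays.

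In radio-adapted thymocytes the inflammatory caspases Casp4 and Casp1 and the death receptor caspase Casp8 rose against control, and the initiator Casp2 fell. A difference was counted when it was at least 1.5-fold and its p from limma, adjusted by Benjamini-Hochberg across the 55681 probes, was under 0.05. By this rule 5 of the 7 members differed between RAR and control, where 26.0% of all probes did. Of these, 4 were higher and 1 was lower, against 12.4% and 13.6% of all probes. The 4 take in Casp12, whose rise has no measured size, since 0 of 3 female controls had Cy5 well above background. In males alone Casp12 missed the threshold. The median difference of the members was 0.72 on the log2 scale, while that of all probes was -0.03. At an adjusted p under 0.05 without the fold limit 7 of 7 members passed, and 38.2% of all probes did. With the slide as a block or quantile normalization 6 of 7 passed, all but Casp9. The share of all probes without the fold limit was taken in the main fit only. The single doses moved fewer members. High dose against control gave 2 members, both higher, where 11.5% of all probes were called, 5.86% higher and 5.59% lower. Low dose against control gave 1 member, which was higher, where 9.89% were called, 5.08% higher and 4.81% lower. RAR against high dose gave 3 higher members (9.46% of all probes, 5.27% higher and 4.19% lower), and RAR against low dose gave 3 higher members (9.05%, 4.78% higher and 4.27% lower). Those 3 were Casp1, Casp4 and Casp12 in both comparisons, which share the radio-adapted arrays as the comparisons with control share the control arrays. The median difference of the members was 0.27 for high dose and 0.17 for low dose against control, 0.45 for RAR against high dose and 0.55 for RAR against low dose, and the median of all probes lay between -0.02 and -0.01 in these 4 comparisons. Because the arrays measured RNA of the whole suspension, fewer cells of a type and less RNA per cell cannot be told apart.

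**Figure D1:**
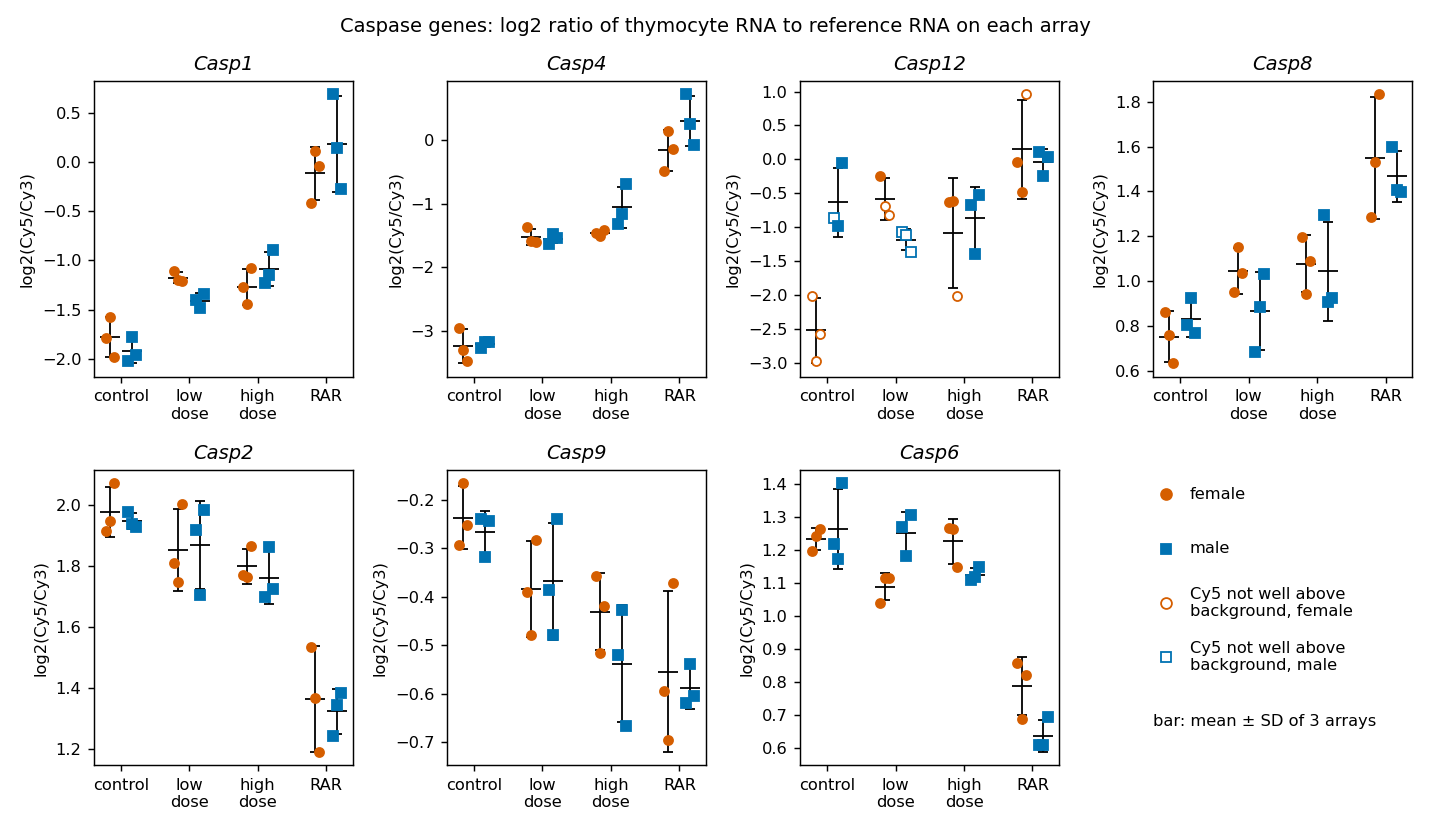
Log2 ratio of thymocyte RNA (Cy5) to reference RNA (Cy3) for the 7 caspase genes on each of 24 arrays, by treatment, with females as circles, males as squares, open symbols where Cy5 was not well above background, and bars for the mean ± SD of 3 arrays. Each panel has its own scale. Casp4 and Casp1 stepped up from control through the single doses to RAR, and Casp2 and Casp6 were lowest in RAR.

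Casp4 showed the widest differences among the members in all 5 comparisons. In control females its log2 ratio was -2.95, -3.29 and -3.47, and in control males -3.26, -3.16 and -3.16. After the low dose it lay between -1.63 and -1.37 on the 6 arrays (median -1.56), and after the high dose between -1.51 and -0.69 (median -1.37). In radio-adapted females it was -0.49, 0.15 and -0.14, and in radio-adapted males 0.71, 0.25 and -0.08. Every control array was below every irradiated array, and every RAR array was above every array of either single dose, while the low and high dose ranges overlapped each other. The mean was -3.22 ± 0.17 in control, -1.53 ± 0.10 after the low dose, -1.26 ± 0.30 after the high dose and 0.07 ± 0.41 in RAR (SD, n = 6 each). Casp4 was 9.72-fold higher in RAR than in control (log2 difference 3.28, SE 0.14, adjusted p = 4.53e-12), and the high and the low dose alone gave 3.88-fold (adjusted p = 1.26e-08) and 3.21-fold (adjusted p = 1.01e-07). Above the single doses, RAR was 2.51-fold higher than high dose (adjusted p = 3.14e-06) and 3.03-fold higher than low dose (adjusted p = 2.64e-07). The exact two-sided permutation test, with array labels exchanged within each sex, gave 0.005 for each of these 5 differences, the smallest p its 400 arrangements allow. The other probe of Casp4 gave 3.28 for RAR against control, 1.29 against high dose and 1.59 against low dose, and passed the threshold in the same 5 comparisons.

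Casp1 moved in the same direction with smaller steps. Its log2 ratio in control was -1.78, -1.57 and -1.98 in females and -2.02, -1.78 and -1.96 in males. After the low dose it was between -1.48 and -1.11 (median -1.27), and after the high dose between -1.45 and -0.89 (median -1.18). In RAR it was -0.42, 0.11 and -0.05 in females and 0.68, 0.14 and -0.28 in males. As for Casp4, control arrays were the lowest and RAR arrays the highest, with no overlap with the single doses, and the ranges of the 2 single doses overlapped. The means were -1.85 ± 0.17, -1.29 ± 0.14, -1.18 ± 0.19 and 0.03 ± 0.39 (SD, n = 6) for control, low dose, high dose and RAR. Casp1 was 3.68-fold higher in RAR than in control (log2 difference 1.88, SE 0.14, adjusted p = 3.09e-09), 2.31-fold higher than after the high dose (adjusted p = 6.51e-06) and 2.50-fold higher than after the low dose (adjusted p = 1.75e-06). The high dose alone gave 1.59-fold (adjusted p = 0.00106), which came to 0.57 and 0.58 on the log2 scale, just under the fold limit of 0.585, with another background correction and with Cy5 alone. The low dose gave 1.47-fold, under the fold limit, at an adjusted p of 0.00523. All 5 differences reached the smallest exact permutation p of 0.005. Without the 2 radio-adapted female arrays that stood apart, RAR against control was 1.73 for Casp1 (adjusted p = 4.78e-07) and 3.12 for Casp4 (adjusted p = 1.18e-09). In males on slide 2, with 1 array on each side, RAR minus control was 2.70 for Casp1 and 3.97 for Casp4.

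Casp12 rested on a dimmer probe. Cy5 was well above background on 13 of 24 arrays, and on 0 of 3 female controls, where the log2 ratios were -2.01, -2.98 and -2.57. The male controls were at -0.86, -0.98 and -0.05. In RAR the values were -0.04, -0.47 and 0.96 in females, the last without Cy5 well above background, and 0.11, -0.24 and 0.03 in males. Control and RAR overlapped because of 1 male control. Casp12 was 3.10-fold higher in RAR than in control over both sexes (log2 difference 1.63, SE 0.28, adjusted p = 0.000101, exact permutation p = 0.01), but this came to 0.27 with normexp background correction and loess (adjusted p = 0.00314), under the fold limit. With the female controls not well above background, the 3.10-fold is not a measured size. In males alone the log2 difference was 0.60 and missed the threshold (adjusted p = 0.298 from limma). Against the floor of the arrays, mean Cy5 was 1.27-fold higher in radio-adapted females and 1.01-fold higher in low dose females. The floor was the higher of the control's own signal and the lowest signal well above background on each control array. Only 2 of 3 radio-adapted and 1 of 3 low dose female arrays were well above background, and the means take in the others too. These values are therefore not strict lower bounds. RAR was 2.05-fold above high dose (adjusted p = 0.0125) and 1.92-fold above low dose (adjusted p = 0.0215). With normexp and loess these came to 0.24 and 0.21 on the log2 scale, under the fold limit, and the first came to 0.52, also under it, when the value farthest from each group mean was left out. With the slide as a block the second was 1.17 with an adjusted p of 0.0913, without radio-adapted female replicate 3 it was 0.74 (adjusted p = 0.0627), without low dose female replicate 3 it was 0.88 (adjusted p = 0.0555), and without low dose male replicate 3 it was 0.90 (adjusted p = 0.0505). Without both radio-adapted female arrays that stood apart they were 0.94 (adjusted p = 0.0566) and 0.85 (adjusted p = 0.084). High dose against control (0.60, 95% interval 0.01 to 1.19, adjusted p = 0.146) and low dose against control (0.69, 0.10 to 1.29, adjusted p = 0.0941) missed the threshold. Both passed it with Cy5 alone (0.83, adjusted p = 0.0142, and 0.91, adjusted p = 0.0102) and when the farthest values were left out (1.24 and 0.93), high dose also without high dose female replicate 3 (0.83, adjusted p = 0.0254) and low dose without male control replicate 3 (0.84, adjusted p = 0.0493).

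Casp1, Casp4 and Casp12 follow one another on mouse chromosome 9, with Gria4 before and Pdgfd after them among protein-coding genes. Their promoters are printed because these 3 neighbours are the members that were higher in RAR than after either single dose, Casp12 not under every alternative, and that of Casp2 is added as the member that fell. The sequences run 5′ to 3′ on the plus strand from 250 bases before to 50 bases after the start in RefSeq (build GRCm38.p6), which had promoters for all 7 members. Capitals mark matches, on either strand, to the NF-kB element, a GAS element bound by STAT factors (TTCNNNGAA) or an IRF element (GAANNGAAA).
Casp1, chr9:5298267-5298566: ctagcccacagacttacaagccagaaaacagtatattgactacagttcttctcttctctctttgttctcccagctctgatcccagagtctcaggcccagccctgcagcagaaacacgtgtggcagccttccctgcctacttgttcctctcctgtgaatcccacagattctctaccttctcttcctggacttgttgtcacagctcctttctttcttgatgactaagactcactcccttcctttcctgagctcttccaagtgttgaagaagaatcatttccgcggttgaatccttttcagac
Casp4, chr9:5308599-5308898: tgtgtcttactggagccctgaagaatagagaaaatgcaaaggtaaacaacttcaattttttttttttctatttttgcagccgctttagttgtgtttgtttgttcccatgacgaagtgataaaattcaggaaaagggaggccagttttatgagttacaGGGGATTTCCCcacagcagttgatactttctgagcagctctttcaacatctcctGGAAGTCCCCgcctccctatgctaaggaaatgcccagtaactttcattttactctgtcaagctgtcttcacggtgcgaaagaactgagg
Casp12, chr9:5345226-5345525: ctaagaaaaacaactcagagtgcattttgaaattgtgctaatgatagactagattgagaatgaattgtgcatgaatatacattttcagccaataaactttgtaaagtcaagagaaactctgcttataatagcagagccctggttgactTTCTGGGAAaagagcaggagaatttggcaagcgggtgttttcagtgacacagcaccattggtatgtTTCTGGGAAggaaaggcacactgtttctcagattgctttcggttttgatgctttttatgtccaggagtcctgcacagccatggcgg
Casp2, chr6:42264735-42265034: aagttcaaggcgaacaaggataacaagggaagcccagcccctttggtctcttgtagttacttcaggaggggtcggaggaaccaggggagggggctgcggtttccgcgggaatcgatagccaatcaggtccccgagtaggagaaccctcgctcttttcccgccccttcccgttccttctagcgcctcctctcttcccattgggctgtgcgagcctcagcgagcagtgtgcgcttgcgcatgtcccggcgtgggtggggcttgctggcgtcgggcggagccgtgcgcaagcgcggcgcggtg

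The Casp4 promoter held 3 matches to the NF-kB element. Of these, ggggatttcc and gggatttccc began 93 and 92 bases before the start and overlapped, and the third, on the minus strand, reads ggaagtcccc on the plus strand and began 39 bases before it. Of 27025 genes with a promoter of the same length, 8.2% held a match. The Casp12 promoter held 2 copies of ttctgggaa, 102 and 36 bases before the start, which match the GAS element, found in 8.5% of the promoters. The Casp8 promoter, not printed, held 1 match to the IRF element, which was in 7.6% of the promoters. The other motifs searched, the AP-1 element (TGANTCA, in 7.9% of promoters) and the TRP53 half-site (in 8.4%), had no match in the window of any member, and the windows of Casp1, Casp2, Casp9 and Casp6 held none of the 5. The motifs were picked with the expression values known, and a match is a run of letters, not evidence of binding. The members also differed in base composition. The 4 that were higher in RAR had promoters of 41.0% to 48.0% G and C with 3 to 5 CG steps, whereas Casp2, Casp9 and Casp6, whose differences from control were all below 0, had 63.7%, 66.0% and 62.0% with 26, 28 and 16 CG steps. The median of all promoters was 52.7% G and C. The members were split here with their expression values known, and Casp9 and Casp6 were under the fold limit. A link between base composition and direction was not tested.

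Of the protein-coding genes next to the 3 inflammatory caspases, looked up after the caspase values were seen, none was higher in RAR by the threshold. Gria4 differed from control by 0.15 in RAR (SE 0.38, adjusted p = 0.8) and Dync2h1, further out on the Casp12 side, by -0.08 (SE 0.11, adjusted p = 0.652). Msantd4, next to Gria4, fell by 0.60 on the log2 scale (adjusted p = 2.9e-06). The probes of Pdgfd and Kbtbd3 were well above background in Cy5 on 1 array each and that of Ddi1 on 0, too dim to compare.

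Casp8, the initiator at death receptors, was higher in RAR. In control its log2 ratio was 0.86, 0.76 and 0.63 in females and 0.80, 0.93 and 0.77 in males. In RAR it was 1.29, 1.53 and 1.83 in females and 1.60, 1.41 and 1.40 in males. All RAR arrays were above all control and all low dose arrays, and the highest high dose array (1.30) reached into the RAR range. Casp8 was 1.64-fold higher in RAR than in control (log2 difference 0.72, SE 0.10, adjusted p = 9.19e-06, exact permutation p = 0.005). With Cy5 alone the difference was 0.55, under the fold limit and no larger than the median of all probes on that scale, 0.56, and without the 2 radio-adapted female arrays that stood apart it was 0.584, also under it (adjusted p = 0.000397). Against high dose and low dose RAR was 1.36-fold and 1.47-fold higher, under the fold limit at adjusted p-values of 0.00306 and 0.000509. The difference from low dose passed the fold limit with normexp and loess (0.62), with the slide as a block (0.60), without radio-adapted female replicate 1 (0.62) and without low dose male replicate 3 (0.59), and the difference from high dose was 0.32 with an adjusted p of 0.0611 without the 2 arrays that stood apart. High dose minus control was 0.27 (95% interval 0.06 to 0.48) and low dose minus control 0.17 (-0.04 to 0.37), with adjusted p-values of 0.0602 and 0.302.

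Casp2, the PIDDosome initiator, fell in RAR. Its log2 ratio in control was 1.92, 1.95 and 2.07 in females and 1.98, 1.94 and 1.93 in males, and in RAR 1.53, 1.36 and 1.19 in females and 1.24, 1.34 and 1.38 in males. The RAR arrays were below all arrays of the other 3 treatments. The difference from control was -0.62 (SE 0.07, 1.54-fold, adjusted p = 1.31e-06, exact permutation p = 0.005). It lay close to the fold limit, and came to -0.50 with normexp and loess, -0.57 with the slide as a block, -0.52 with the farthest values left out, -0.58 without radio-adapted female replicate 3 and -0.53 without replicates 2 and 3. Against high dose and low dose RAR was lower by 1.35-fold and 1.43-fold, under the fold limit (adjusted p = 0.000309 and 5.35e-05). The single doses differed from control by -0.18 (95% interval -0.34 to -0.03, adjusted p = 0.0841) and -0.10 (-0.26 to 0.05, adjusted p = 0.409).

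Casp9 and Casp6 did not reach the fold limit in any of the 5 comparisons. Casp9, the apoptosome initiator, was between -0.32 and -0.17 in control (median -0.25), between -0.48 and -0.24 after the low dose, between -0.67 and -0.36 after the high dose and between -0.70 and -0.37 in RAR (median -0.60). Control was above the high dose and RAR ranges without overlap, and the high dose and RAR ranges overlapped. Its differences from control were -0.32 in RAR (SE 0.07, adjusted p = 0.00106), -0.23 after the high dose (adjusted p = 0.0203) and -0.12 after the low dose (95% interval -0.27 to 0.02, adjusted p = 0.259). With the slide as a block the first 2 were -0.20 (adjusted p = 0.275) and -0.11 (adjusted p = 0.697), and with quantile normalization -0.22 (adjusted p = 0.0516) and -0.08 (adjusted p = 0.586). Casp6, the executioner, was between 1.17 and 1.40 in control (median 1.23), between 1.04 and 1.30 after the low dose, between 1.11 and 1.27 after the high dose and between 0.61 and 0.86 in RAR (median 0.69). Only the RAR arrays of Casp6 stood clear of the rest. Casp6 differed by -0.54 between RAR and control (1.45-fold, SE 0.06, adjusted p = 3.58e-07) and by -0.46 from each single dose, while the single doses differed from control by -0.07 (95% interval -0.19 to 0.05) and -0.08 (-0.20 to 0.04). With quantile normalization and with Cy5 alone the RAR difference was -0.63 and -0.73 and passed the fold limit.

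**Figure D2:**
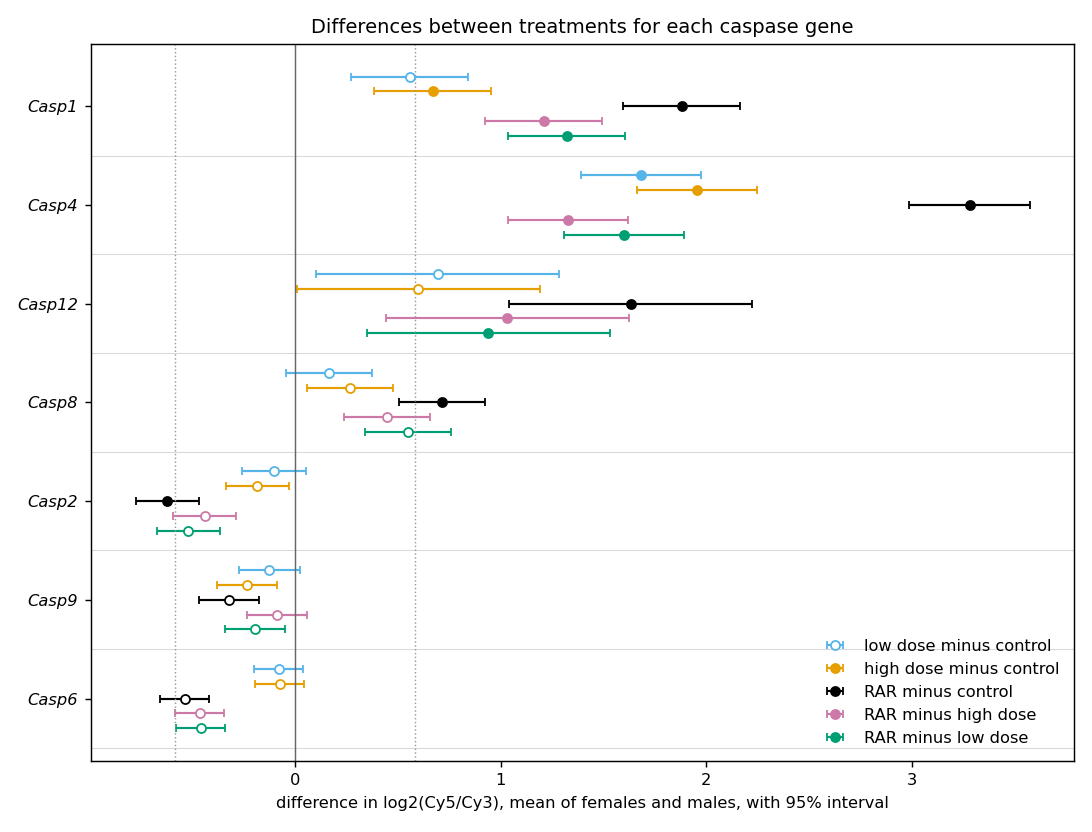
Difference in log2(Cy5/Cy3) for each caspase gene in 5 comparisons, as the mean of the female and male differences with its 95% interval from limma. Filled points passed the adjusted p of 0.05 and the 1.5-fold limit (dotted lines at 0.585 on either side of 0), and open points did not. Casp4 lies farthest from 0, at 3.28 for RAR minus control. The points of Casp2, Casp9 and Casp6 lie below 0 throughout, but several of their intervals cross 0.

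Sexes were compared as well. None of the 7 members passed the threshold for males minus females within RAR (0.438% of all probes), nor in the sex difference of RAR less that of control (0% of all probes), high dose (0.00359%) or low dose (0%), and none passed limma's F-test for the interaction of sex and treatment (0.00359%). At an unadjusted p under 0.05 the counts of members were 1, 1, 0, 1 and 1 in the same order, where 11.8%, 7.62%, 4.73%, 7.08% and 6.45% of all probes passed. Casp4 was 0.46 higher in radio-adapted males than females on the log2 scale (95% interval 0.04 to 0.87, adjusted p = 0.371), and Casp1 0.30 higher (-0.10 to 0.70, adjusted p = 0.556). Casp12 had the lowest p of the F-test, 0.0019 before and 0.634 after adjustment. Its male difference between RAR and control was 0.60 (95% interval -0.24 to 1.43, adjusted p = 0.298). The female one has no measured size, because none of the 3 female controls, all on 1 slide, had Cy5 well above background. For Casp4 the RAR minus control difference was 3.07 in females and 3.49 in males, for Casp1 1.66 and 2.10, for Casp8 0.80 and 0.64, and for Casp2 -0.62 and -0.63.

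Markers of myeloid cells, which could be in a thymus suspension and which use inflammatory caspases, moved in the same direction as Casp1 and Casp4. Of 12 listed markers 10 had a named probe, and in RAR all 10 were higher than in control, also with the other normalizations, with Cy5 alone and with the slide as a block, led by Fcgr1 (4.19 on the log2 scale, adjusted p = 5.78e-09), S100a8 (2.58, adjusted p = 7.11e-09) and Tyrobp (2.33, adjusted p = 1.09e-10). After the high dose 7 of 10 were higher and after the low dose 6 of 10. Of all probes 12.4% were higher in RAR, 5.86% after the high dose and 5.08% after the low dose. Their summed level, as Cy5 over the 75th percentile of the array, was 110 to 180 in control, 225 to 395 after the low dose, 200 to 395 after the high dose and 493 to 590 in RAR, so that RAR did not overlap with the other treatments. Across the 6 RAR arrays Casp1 ran from -0.42 to 0.68 and Casp4 from -0.49 to 0.71. The part of the myeloid markers in the caspase differences was not tested.

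**Figure D3:**
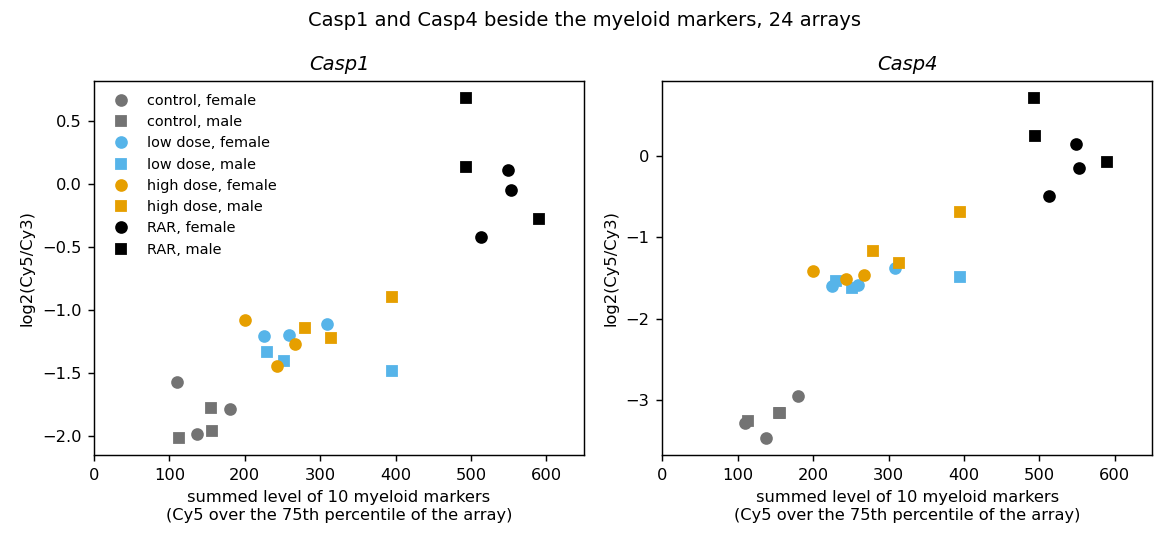
Log2 ratio of Casp1 (left) and Casp4 (right) against the summed Cy5 level of 10 myeloid markers, scaled to the 75th percentile of each array, on 24 arrays coloured by treatment. Control arrays lie at 110 to 180 and RAR arrays at 493 to 590.

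The thymocyte markers showed the labelled cell type, with all 10 markers of double-positive thymocytes well above background on every array. In RAR 2 of them were higher (Rag1 and Cd8b1) and 2 lower (Ptcra and Themis) than in control, with the slide as a block 2 were higher and 0 lower, and with Cy5 alone 0 were higher and 7 lower, with the sign of Rag1 and Cd8b1 turned, and their summed Cy5 level was 341 to 507 in RAR against 645 to 775 in control. Of all probes 12.4% were higher and 13.6% lower in RAR than in control by the same rule. Of 6 mature T-cell markers 4 were higher in RAR and 0 lower, led by S1pr1 (1.24). Of 7 B-cell markers 1 was higher and 4 lower, of 7 epithelial markers 1 and 4, of 6 stromal markers 2 and 1, of 4 endothelial markers 0 and 2, and of 5 erythroid markers with a probe 1 and 0. With the other normalizations, Cy5 alone and the slide as a block, B-cell markers gave 1 to 2 higher and 2 to 4 lower, epithelial markers 1 and 2 to 4, and stromal markers 1 to 2 and 0 to 2. Endothelial markers gave 0 and 0 with normexp and loess and with the slide as a block, and 1 and 0 with Cy5 alone, where erythroid markers gave 0 and 0. Their part in the caspase differences was not tested.

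The partners of the inflammatory caspases rose with them in part. Of 14 inflammasome and pyroptosis genes, 6 were higher and 0 lower in RAR than in control, and 3 were higher after either single dose. Of all probes 12.4% were higher and 13.6% lower in RAR, and 5.86% and 5.08% were higher after the high and the low dose. Il1b, the cytokine that Casp1 matures, was 32.7-fold higher in RAR (5.03 on the log2 scale, SE 0.23, adjusted p = 1.3e-11), and already 43.2-fold and 35.8-fold higher after the high and the low dose. Mefv, which encodes pyrin, a sensor that activates Casp1, was higher by 2.60 in RAR (adjusted p = 4.44e-07), 1.71 after the high dose and 1.48 after the low dose. Naip2, a receptor for bacterial secretion proteins, was higher by 1.72 in RAR (adjusted p = 4.56e-08) and exceeded the high dose by 1.19 and the low dose by 1.26. Il18, the other cytokine cut by Casp1, exceeded the high dose by 1.83 (adjusted p = 6.33e-06) and the low dose by 1.80 (adjusted p = 5.13e-06). The median difference of the list in RAR was 0.53. Gasdermin D and the adaptor Pycard, named here for their role after their values were seen, differed by 0.55 and -0.52, both under the fold limit. Gasdermin D passed it, higher, with normexp and loess (0.65), quantile normalization (0.70) and the slide as a block (0.60). Pycard passed it, lower, with quantile normalization (-0.76), Cy5 alone (-0.95) and the slide as a block (-0.63).

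Of 12 apoptosome genes and regulators, the partners of Casp9, 0 were higher and 3 lower in RAR than in control, where 26.0% of all probes were called in either direction. The 3 were Endog (-1.03, adjusted p = 6.91e-07), a mitochondrial nuclease, and Dffa (-1.08, adjusted p = 1.28e-05) and Dffb (-0.84, adjusted p = 6.15e-08), the inhibitor and the nuclease of the caspase-activated DNase, the latter under the fold limit with normexp and loess (-0.56). With Cy5 alone the counts were 1 higher and 7 lower. The scaffold Apaf1 was higher after the high dose (0.95, adjusted p = 8.88e-06) and the low dose (0.95, adjusted p = 1.12e-05), and 0.50 in RAR, under the fold limit. In RAR it passed with the slide as a block (0.66, adjusted p = 0.0226) and with Cy5 alone (0.585). On the scale of Cy5 alone the median of all probes was itself 0.56, close to the value of Apaf1. Cycs, cytochrome c, was lower after the high dose (-0.82) and the low dose (-0.79), and -0.47 in RAR, or -0.64 with Cy5 alone. Against both single doses 1 gene of the list was lower in RAR, Birc5, which encodes the inhibitor survivin (-0.70 and -0.83). Of all probes 4.19% were lower against high dose and 4.27% against low dose.

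Among 10 death receptor genes, the pathway of Casp8, 2 were higher and 3 lower in RAR, where 12.4% and 13.6% of all probes were. Tnfrsf10b, a receptor for TRAIL, was higher in RAR (1.33, adjusted p = 1.48e-10), after the high dose (1.06) and after the low dose (0.97). Cflar, the inhibitor of Casp8 known as FLIP, was higher in RAR by 0.81 against control (adjusted p = 4.66e-06), 0.89 against high dose and 0.64 against low dose, with 0.54 and 0.50 against control and low dose, under the fold limit, after quantile normalization. Fadd, the adaptor of Casp8, was lower in RAR (-0.90, adjusted p = 0.0104) but missed the threshold with normexp and loess, quantile normalization, Cy5 alone (-0.05) and the slide as a block. Bid, which Casp8 cuts to reach the mitochondria, was lower in RAR (-1.17, adjusted p = 6.59e-11), after the high dose (-0.93) and after the low dose (-0.99). The remaining lower gene in RAR was Casp8ap2 (-0.92, adjusted p = 6.7e-07).

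Neither PIDDosome gene, Pidd1 or Cradd, passed the threshold in any of the 5 comparisons, and in RAR they differed from control by -0.07 and -0.49. With quantile normalization Cradd came to -0.59 (adjusted p = 0.000461) and passed. Of 8 genes of endoplasmic reticulum stress, 2 were higher and 1 lower in RAR, where 12.4% and 13.6% of all probes were. Hspa5, the main chaperone of that compartment, was higher by 1.17 in RAR (adjusted p = 8.96e-10) and by 0.97 and 1.03 against high and low dose. Eif2ak3, the stress kinase PERK, was higher in all 3 irradiated groups, by 0.63 in RAR, 1.00 after the high dose and 1.26 after the low dose, with 0.32 in RAR after quantile normalization (adjusted p = 0.0919) and 0.50 with Cy5 alone. The lower gene was Atf6 (-0.76, adjusted p = 0.0211), a membrane-bound stress sensor, which came to 0.04 with normexp and loess and to -0.35 with the slide as a block (adjusted p = 0.671).

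**Figure D4:**
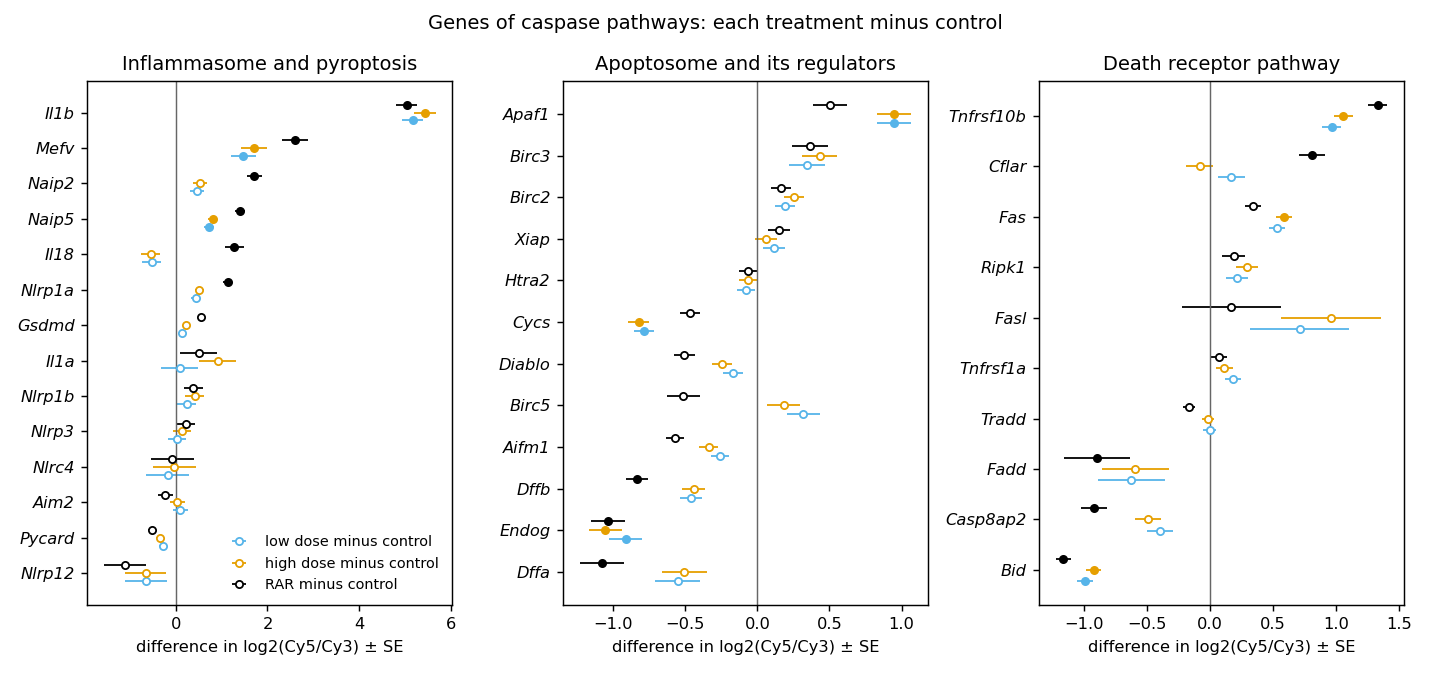
Difference in log2(Cy5/Cy3) from control, ± SE from limma, for the genes of the inflammasome, apoptosome and death receptor lists after the low dose, the high dose and RAR, with filled points past the threshold and open points not past it. Il1b stands at 5.03 in RAR, and Bid, Endog and Dffa lie near or below -1 in RAR.

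Casp14, a caspase known from the skin and not one of the 7, was higher in RAR than in control by 0.86 (adjusted p = 0.000167). Its Cy5 was not well above background on every RAR array. With normexp and loess its difference was 0.28 and did not reach the fold limit.

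The genes whose log2 ratio followed each member most closely over the 24 arrays were sought among 14127 genes with Cy5 well above background on at least 12 arrays. Pearson's r, given as a description since arrays of 1 treatment lie together, was 0.986 with Stat2 and 0.983 with Trafd1 for Casp1, and 0.991 with both Emilin2 and Clec4e for Casp4. For Casp8 it was 0.933 with Lpl and 0.929 with B2m. For Casp2 it was 0.966 with Ezh2 and 4930579G24Rik, for Casp6 0.963 with Zscan21 and 0.960 with Ap3s1, and for Casp9 0.908 with Casp8ap2 and 0.907 with Trappc6b. Casp12, the dimmest member, reached 0.821 with Cyp3a13 and 0.806 with Aanat.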

How the data were processed

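RNA of 24 thymocyte samples, 3 for each sex and treatment, was measured on Agilent 60K arrays, and the labels name them independent samples, so p-values measure the spread between them. For each array the authors deposited scanner output of Feature Extraction (version 11.5.1.1 per the file headers; the methods name another), with the red and green intensity of 62976 spots, background-subtracted and dye-normalized, and a matrix of log2(Cy5/Cy3), used here. Of its values 99.8% on every array lay within 0.01 of the ratio recomputed from the processed signals. Number of spots and arrays, not read depth, limits the precision. Probes were named by accession (28026 of 55681) through the RefSeq gene list of GRCm38.p6, for names and order only, since the array annotation uses another build; promoters came from RefSeq, same build. All arrays were fitted as 8 group means with limma 3.58.1 in R 4.3.3 (16 residual and 1.63 prior degrees of freedom), each comparison being the mean of the female and male differences, and the script was tested on simulated data. Python 3.11.15, pandas 2.3.3 matplotlib 3.10.9 and data.table (version 1.17.8) were used. Where a gene had several probes, the one with the highest mean Cy5 led. All members were reported; of each gene list at most the 3 largest rises and 3 largest falls past the threshold, with Cy5 well above background throughout the brighter group, and per member the 2 genes most alike, were named, unless said otherwise. The members and lists (apoptosome, death receptor, PIDDosome, inflammasome, endoplasmic reticulum stress, cell type markers) were chosen with earlier results of these data known. The alternatives were the scanner signals without outlier spots (183 to 368 per array), normexp (offset 50) with loess, quantile normalization, Cy5 alone scaled to its 75th percentile, a filter on dim probes, blocks for slide and replicate number, leaving out the farthest value of each group or each array in turn, and a log2 limit of 1.5. The deposited intensity values of other columns, and the Western blots and RT-PCR of the study, were not used here. Some caspase genes outside the 7 are not reported here.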

Additional observations from a re-analysis of the deposited data

Results flagged for a closer look

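Casp12 after the low dose went opposite ways in the sexes on every array, but partly on signals not well above background. Cy5 of Casp12 was well above background on 0 of 3 female control arrays and 0 of 3 low dose male arrays, on 1 of 3 low dose female arrays and on 2 of 3 male control arrays. As deposited, all 3 low dose females were above the mean of the female controls and all 3 low dose males below that of the male controls, and the male difference less the female one was -2.49 on the log2 scale. Both sides hold a group that was not well above background on any array, so neither this value nor the rise in females has a measured size. The difference was not tested by itself. In limma's F-test over all interaction terms of sex and treatment, fitted across all probes, Casp12 had an adjusted p of 0.634.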

How the results depend on the processing

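Of 958 member differences recomputed under the alternatives, 0 turned a called direction, 27 lost the threshold and 17 gained it. A further 37 differences, all within a slide, departed from the main value by at least the gene's mean SD within groups. The 958 include all differences within a slide, which had no test and so could neither lose nor gain the threshold. Casp4 and Casp1 kept RAR against control past 1.5-fold under every alternative (3.04 to 3.48 and 1.73 to 2.18 on the log2 scale, and 3.18 to 3.37 and 1.76 to 2.00 without 1 array). The counts of members past the threshold changed as follows. With normexp and loess, 1 member was called for high dose, 3 for RAR against control and 2 for RAR against high dose. RAR against control gave 6 with quantile normalization and 4 with the slide as a block, and RAR against low dose gave 4 with Cy5 alone. Low dose against control gave 2 members with quantile normalization and with Cy5 alone, and 1 to 2 without 1 array (2 without female control replicate 2, male control replicate 2 or male control replicate 3). Without 1 array the counts were 2 to 3 for high dose, 4 to 5 for RAR against control, 3 for RAR against high dose and 2 to 4 for RAR against low dose (2 without radio-adapted female replicate 3 or low dose female replicate 3). With the farthest values left out, high dose and low dose gave 3 each, RAR against control 4 and RAR against high dose 2. Between the sexes 1 member then differed in RAR against control, where 11863 of all 55681 probes did. In RAR against low dose 1 member differed (11411 of all probes), and 2 passed the interaction F-test (33620 of all probes). Leaving these values out narrows the spread by construction. Over a log2 change of 1.5, 1 member was called for high dose, 3 for RAR against control, 0 for RAR against high dose and 1 for RAR against low dose. Without radio-adapted female replicates 2 and 3 together, an alternative chosen after seeing the data, RAR against control gave 3, and RAR against high and against low dose 2 each. With the replicate block, RAR against control again gave 5 members (Casp4 3.28, adjusted p = 1.3e-10), and the block changed no other call; same-numbered samples did not deviate together (mean correlation -0.002, and 6 of 24 arrays correlated best with their own number). Over all probes, called for high dose, low dose, RAR against control, against high and against low dose, the counts were 6378, 5507, 14454, 5267 and 5040. With normexp and loess they were 2903, 2354, 7218, 2354 and 2521 (68.8%, 71.5%, 66.7%, 85.9% and 82.2% higher, in place of 51.2%, 51.4%, 47.6%, 55.7% and 52.8%), with the farthest values left out 13525, 11690, 20329, 12692 and 12149, and over a log2 change of 1.5 808, 636, 2930, 474 and 472. With the slide as a block high dose gave 3307, RAR against control 9778 and RAR against low dose 3191. Quantile normalization gave 14365 for RAR against control and 5379 for low dose, and low dose gave 5918 with Cy5 alone. With Cy5 alone RAR gave 26955, 11865 and 9388 (73.5%, 84.9% and 78.4% higher; high dose 64.6%), and the median of all probes shifted by 0.59, 0.34 and 0.33 in these and by 0.18 in low dose against control. On that scale the rise of Casp8 in RAR, 0.55, was no larger than the median of all probes, 0.56. Dim signal limits Casp12, measured above background on 13 of 24 arrays, and comparisons within a slide, with 1 to 3 arrays a side, were given as values and not tested by themselves.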
